A study of Mus musculus with 4 samples.

Results

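The 76 genes described here are named as genes of mitochondrial ribosomal proteins. They were taken by symbol, as Mrpl or Mrps followed by a number and without pseudogenes, out of 18194 genes named on the array. Of these 76 genes, 47 carry Mrpl symbols, for the large subunit, and 29 carry Mrps symbols, for the small subunit. The symbols of 2 others, Mrpl30 and Mrpl53, stood only on probe sets that name several genes, and these were not used. The signals came from 3T3-L1 cells, a clonal mouse line of embryonic fibroblast origin that becomes fat cells under hormonal induction. All 4 cultures were grown in 25 mM glucose and 10% serum, received insulin, dexamethasone and isobutylmethylxanthine, and were harvested 24 h later. One was transfected 24 h before induction with control siRNA (siGL3), one with siRNA against aof2 (now Kdm1a, the flavin-dependent histone demethylase LSD1), and one with siRNA against rfk (riboflavin kinase, which makes flavin mononucleotide). The last was induced in the presence of tranylcypromine, a drug that blocks LSD1 as well as monoamine oxidases. Its labels name no siRNA, so an effect of the drug and of a missing transfection cannot be told apart.

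Each culture was measured on 1 array. There are no replicates, so no test between conditions is possible, no SD is given, and "above" and "below" describe these arrays only. The deposited value is the MAS5 signal, a linear intensity per probe set, and differences are given as log2 of a treated array's signal over that of the control siRNA array. Kdm1a stood at 19.5% of control with aof2 siRNA and Rfk at 27.0% of control with rfk siRNA. All 7 fibroblast and preadipocyte markers passed the filter on signal, as did 6 of the 8 fat cell markers on the array, while Adipoq and Cidec, of mature fat cells, did not. The summed signal of the fat cell markers was 26768 in control, 25735 with aof2 siRNA, 25540 with rfk siRNA and 23029 with tranylcypromine. On each array most of this sum came from Cebpb (15358, 16241, 15695 and 15205). Fabp4, a fat cell lipid carrier, was highest in control (2463, against 1301, 791 and 1093), as was Pparg (1047, against 963, 615 and 771). Cebpd was 2493 in control and 3139, 3015 and 2011 in the same order, and Cebpa was lowest in control (91.7, against 135, 93.4 and 112). Of the markers of macrophages, endothelium, epithelium, muscle and neurons, 1 of 5, 1 of 4, 2 of 5, 1 of 5 and 1 of 4 passed it, and Ptprc, Pecam1, Cdh1, Myog and Rbfox3 did not. The summed signal of the epithelial markers was 368 in control, 619 with aof2 siRNA, 387 with rfk siRNA and 748 with tranylcypromine, most of this difference from Krt19 alone (100, 267, 101 and 444). The part of these markers in the results was not tested.

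Mitochondria keep their own ribosomes, which translate the few respiratory chain and ATP synthase proteins encoded in mitochondrial DNA. Their RNA is made inside the organelle, but all of their proteins are encoded in the nucleus, made in the cytosol and imported. About as many of these proteins are shared with bacterial ribosomes as were added in the course of mitochondrial evolution, and the large subunit joins amino acids while the small subunit reads the messenger RNA. Fat cells build many mitochondria as they differentiate, and the genes of this ribosome are known to carry promoter elements for ETS factors (such as GABP), NRF1 and YY1.

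RefSeq promoters (GRCm38.p6, 250 bases before to 50 after the annotated start) were found for 67 of the 76 genes, 41 of the large and 26 of the small subunit. The sequences below run from 90 bases before the start to 10 after it, 5′ to 3′ on the strand of the gene, with matches to the ETS core (CCGGAAG) or the NRF1 core (CGCATGCG) on either strand in capitals. They are shown because they belong to the member furthest from control (Mrpl33), to a member below control on each treated array (Mrpl9), to members holding 2 matches (Mrpl22 and Mrpl43), and to a pair of small subunit symbols (Mrps18a and Mrps27), and were chosen after the matches were seen. They lie at chr5:31613861-31613960 (plus strand), chr3:94443246-94443345 (plus), chr11:58171574-58171673 (plus), chr19:45006433-45006532 (minus), chr17:46110914-46111013 (plus) and chr13:99344696-99344795 (plus), in this order.
Mrpl33: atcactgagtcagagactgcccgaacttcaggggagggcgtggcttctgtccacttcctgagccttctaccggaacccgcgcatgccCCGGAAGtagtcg
Mrpl9: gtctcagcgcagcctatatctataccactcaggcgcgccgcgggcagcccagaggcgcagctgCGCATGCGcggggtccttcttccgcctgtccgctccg
Mrpl22: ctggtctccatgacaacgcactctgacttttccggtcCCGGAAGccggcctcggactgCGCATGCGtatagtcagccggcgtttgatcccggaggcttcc
Mrpl43: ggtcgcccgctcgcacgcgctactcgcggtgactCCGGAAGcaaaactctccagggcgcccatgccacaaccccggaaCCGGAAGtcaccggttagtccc
Mrps18a: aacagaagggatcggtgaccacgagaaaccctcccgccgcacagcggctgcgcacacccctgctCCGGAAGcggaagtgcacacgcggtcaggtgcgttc
Mrps27: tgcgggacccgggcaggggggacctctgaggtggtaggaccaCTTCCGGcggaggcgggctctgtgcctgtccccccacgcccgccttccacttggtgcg

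The ETS core stood in the promoters of 25 of the 67 genes (37.3%), against 23.9% of 5702 bright genes and 9.93% of all 27025 genes with a promoter. Bright genes are the 6873 whose log2 signals averaged at least the 75th percentile over probe sets (signal 414), less those without a promoter. The YY1 core (AAGATGGC) was held by 12 genes (17.9%, against 6.58% of bright and 3.19% of all genes). The NRF1 core was held by 7 (10.4%, against 5.33% and 2.07%). The TATA box letters (TATAAA) were held by 5 (7.46%, against 8.21% and 15.7%). The last 3 letters of the ETS core are the first of the YY1 core, and matches of both shared bases in 0 of the genes, while the NRF1 core is its own reverse complement. A match describes these letters and is not a binding site. The ETS core was more frequent still among 34 cytosolic ribosomal protein genes (47.1%, with 8.82% for YY1 and 5.88% for NRF1). Among 63 respiratory chain and ATP synthase genes the shares were 23.8% for ETS, 14.3% for YY1 and 12.7% for NRF1. By subunit, the ETS core was held by 14 of 41 large and 11 of 26 small subunit genes, the YY1 core by 6 and 6, and the NRF1 core by 6 and 1. The median GC content of these promoters was 58.0%, between the 61.7% of bright genes and the 52.8% of all genes. The YY1 matches lay furthest downstream, with a median first base 15 bases after the start, against 17 bases before it for the ETS core. Genes with the ETS core had median log2 differences of -0.09, -0.05 and -0.11 with aof2 siRNA, rfk siRNA and tranylcypromine, and the 42 genes without it -0.06, -0.07 and -0.04.

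**Figure D1:**
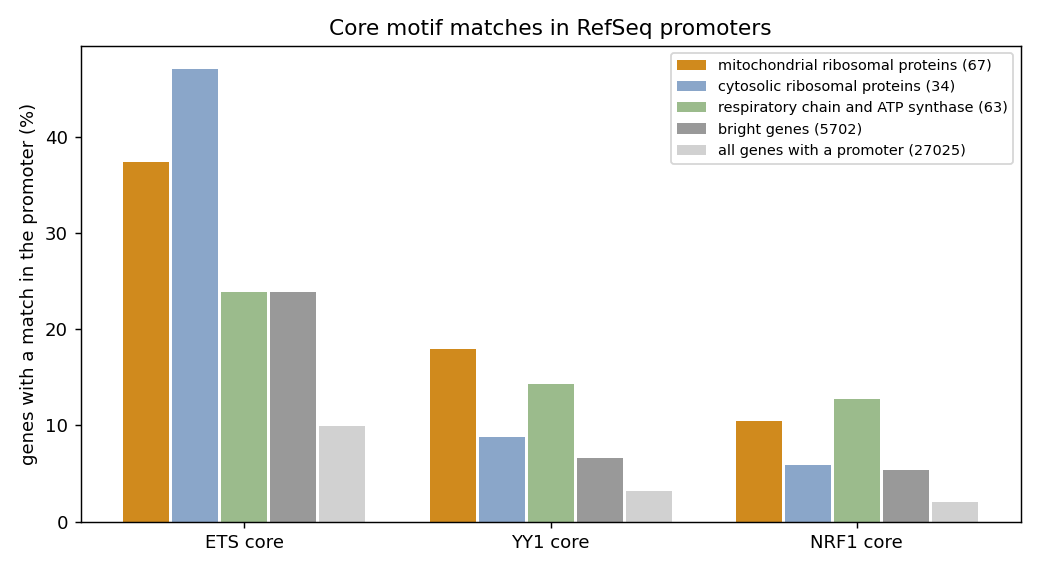
Share of genes (%, vertical axis) whose RefSeq promoter holds each core motif on either strand, for 5 sets of genes with the number of genes in brackets. Mitochondrial ribosomal protein genes stand at 37.3%, 17.9% and 10.4% for the ETS, YY1 and NRF1 cores, each above the share of bright genes.

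The mitochondrial ribosomal protein genes had signals well above the filter and differed little between the 4 arrays. All 76 passed the filter on signal, set where the mean log2 signal equals the median over probe sets (50.9 as a signal), and 75, all but Mrpl55, were bright. Over the 4 arrays the highest log2 signal of a member exceeded its lowest by a median of 0.22, against 0.32 for the 6873 bright genes. The median was smaller still, 0.18, for 39 cytosolic ribosomal protein genes and 0.18 for 77 respiratory chain and ATP synthase genes. A median range below that of bright genes is thus not particular to the members. The range stayed under 0.5 for 74 members (97.4%), against 78.9% of bright, 94.9% of cytosolic ribosomal protein and 88.3% of respiratory chain and ATP synthase genes. It was under 0.1 for Mrpl22, Mrpl23, Mrpl51, Mrps18c and Mrps36. The exceptions were Mrpl33 (0.95) and Mrpl9 (0.51).

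No member reached a 1.5-fold difference from control with either siRNA. Tranylcypromine gave 1, Mrpl33, which was lower. Of the 10788 genes that passed the filter, 6.26% were at least 1.5-fold higher with aof2 siRNA and 2.88% lower, 3.92% and 3.8% with rfk siRNA, and 7.48% and 4.77% with tranylcypromine. Among bright genes the shares were 2.98% and 1.22%, 1.64% and 1.54%, and 4% and 2.31%. At 2-fold there were 0 members in any comparison, against 0.553% of bright genes higher and 0.102% lower with aof2 siRNA, 0.335% and 0.247% with rfk siRNA, and 0.975% and 0.306% with tranylcypromine. Within 0.25 of control on the log2 scale lay 63, 67 and 62 of the 76 members with aof2 siRNA, rfk siRNA and tranylcypromine (82.9%, 88.2% and 81.6%), against 71.6%, 75.6% and 66.0% of bright genes.

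With 1 probe set per gene, the members' median lay slightly below control in each comparison, but with tranylcypromine its place relative to other genes depended on the choice of probe sets. Their median log2 differences were -0.05 with aof2 siRNA, -0.05 with rfk siRNA and -0.05 with tranylcypromine, beside -0.02, -0.01 and -0.02 for bright genes. With all probe sets of each gene averaged, the tranylcypromine median was -0.01, above the -0.03 of all genes compared, where the single probe sets gave -0.05 and -0.02. With aof2 siRNA 52 of 76 were below control, with rfk siRNA 45 and with tranylcypromine 43, where 54.5%, 52.4% and 53.3% of bright genes, and 50.7%, 51.5% and 52% of all genes past the filter, were below. The 3 comparisons share the control array, so they are not independent. When each array was set against the mean of the remaining 3, the medians were -0.06 for aof2 siRNA, 0.00 for rfk siRNA and 0.01 for tranylcypromine.

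The array that stood lowest was that of aof2 siRNA. It held the lowest of the 4 signals for 26 members (34.2%, against 24.4% of bright genes) and the highest for 5 (6.58%, against 18.9%). The control array held the highest signal for 29 members (38.2%, against 27% of bright genes) and the lowest for 14 (18.4%, against 21.3%). The rfk siRNA array held the highest for 16 (21.1%, against 26.1%) and the lowest for 21 (27.6%, against 26.4%). The tranylcypromine array held the highest for 26 (34.2%, against 28%) and the lowest for 15 (19.7%, against 27.8%). Set directly against aof2 siRNA, the tranylcypromine array was higher for 57 of 76 members (75%, against 52.5% of bright genes), with a median log2 difference of 0.06. The rfk siRNA array was higher than aof2 siRNA for 43 members (56.6%, against 51.5% of bright genes). Tranylcypromine was higher than rfk siRNA for 41 (53.9%, against 49.9%). The 18 probe sets of the bacterial hybridisation controls, which should be equal on all arrays, had median log2 differences of 0.10, 0.12 and 0.05 with an SD over probe sets of 0.08, 0.07 and 0.12. Of the 76 members, 27, 23 and 8 lay below the whole range of these controls with aof2 siRNA, rfk siRNA and tranylcypromine, and 3, 4 and 13 above it. The same count over bright genes was not made, so these counts have no background. The lower quartile of bright genes was also below the range with aof2 siRNA (-0.167, against -0.147) and rfk siRNA (-0.146, against -0.106). With tranylcypromine the upper quartile of bright genes was above it (0.152, against 0.143).

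**Figure D2:**
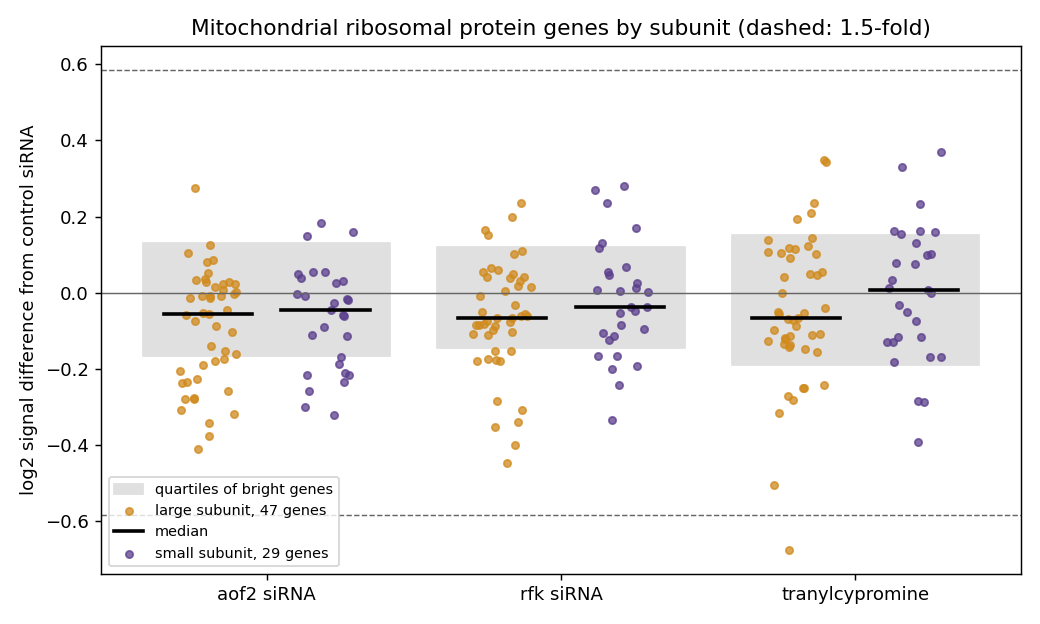
Log2 signal difference from the control siRNA array (vertical axis) for each mitochondrial ribosomal protein gene, 47 of the large and 29 of the small subunit by symbol, with 1 array per condition. Black bars are medians, grey boxes the quartiles of 6873 bright genes and dashed lines 1.5-fold; Mrpl33 with tranylcypromine is the only point past a dashed line.

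The medians of large and small subunit genes lay within 0.1 of each other on the log2 scale. With aof2 siRNA the median log2 difference was -0.06 for the large and -0.04 for the small subunit, with rfk siRNA -0.07 and -0.04, and with tranylcypromine -0.07 and 0.01. The large minus small difference of these medians was -0.01, -0.03 and -0.07, and it was not tested. Below control lay 32 of 47 large and 20 of 29 small subunit genes with aof2 siRNA, 30 and 15 with rfk siRNA, and 29 and 14 with tranylcypromine. Structures of the mammalian ribosome place the proteins of Mrps18a and Mrps30 in the large subunit in spite of their symbols. With both moved there the large minus small differences were -0.03, -0.07 and -0.07.

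The genes were also divided by lists of proteins with bacterial counterparts and of proteins specific to mitochondria. These lists place Mrps18a and Mrps30 in the large subunit. They count Mrps18a and Mrps18b as specific to mitochondria, although both are paralogs of Mrps18c, which they count as bacterial in type. The 44 genes listed with bacterial counterparts had medians of -0.03, -0.06 and -0.02 with aof2 siRNA, rfk siRNA and tranylcypromine. The 30 genes listed as specific to mitochondria had -0.09, -0.02 and -0.08. Mrpl47 and Mrps36 were in neither list, so the class medians leave them out. The lowest class median was -0.10, of the 10 mitochondria-specific small subunit genes with tranylcypromine, and it held both Mrps31 and Mrps34, the lowest and the highest of that class.

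**Figure D3:**
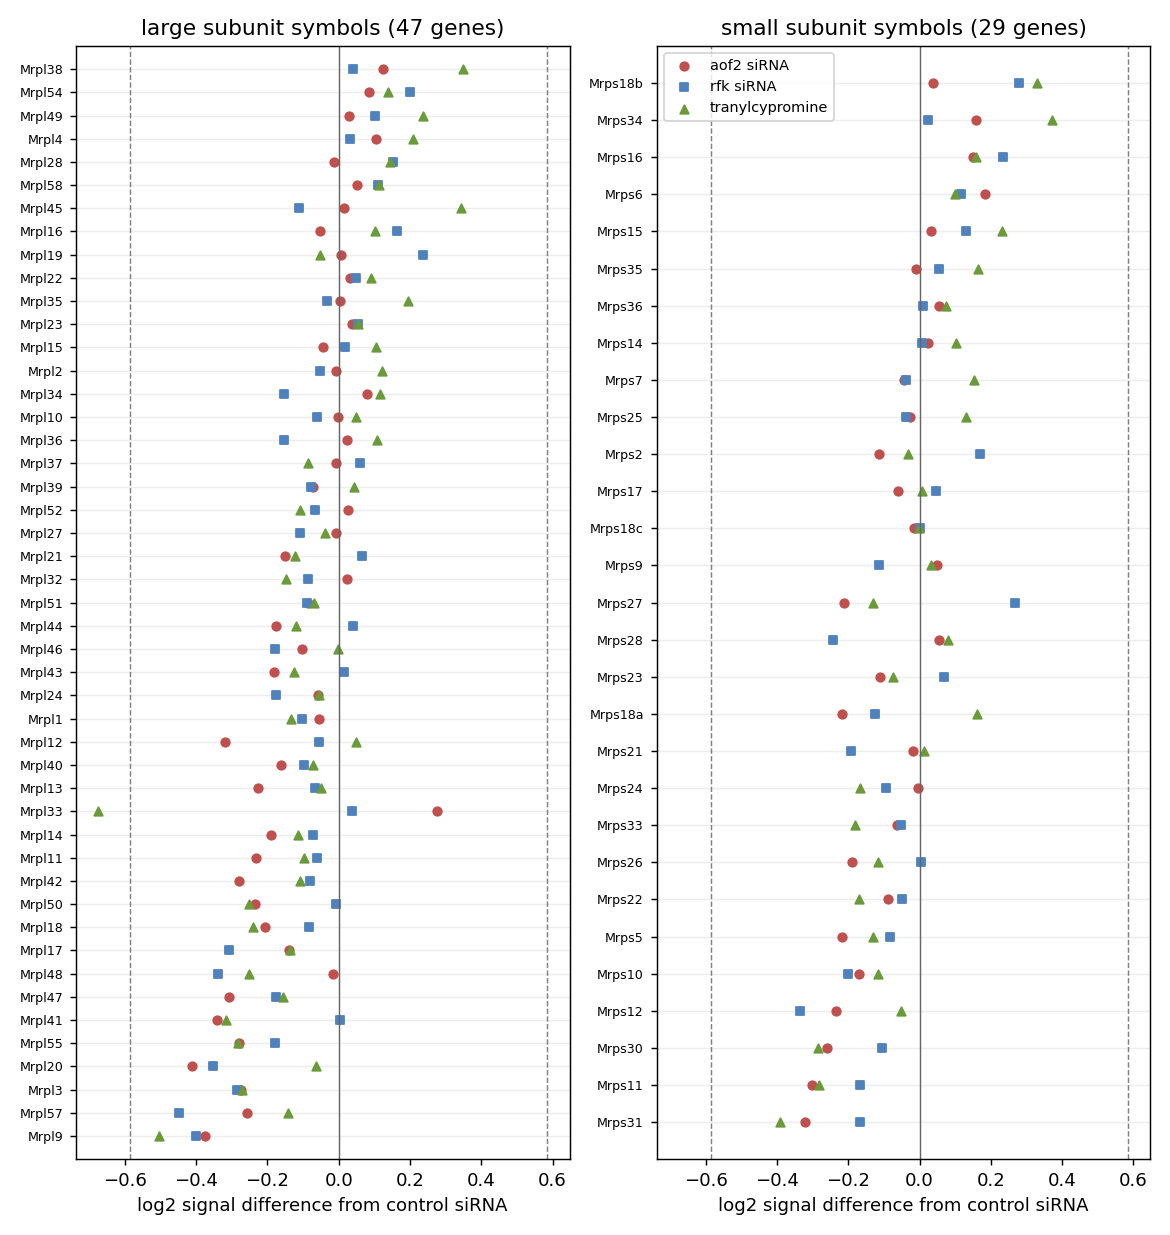
Log2 signal difference from control siRNA (horizontal axis) for every member, large subunit symbols left and small subunit symbols right, ordered by the mean of the 3 differences. Most members lie within 0.25 of control, Mrpl9 and Mrps31 are at the bottom of their panels and Mrpl33 has the widest scatter, from -0.67 to 0.27.

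Among large subunit proteins with bacterial counterparts, Mrpl33 was the member furthest from control. It encodes a very small protein of the large subunit and had signals of 4898 in control, 5925 with aof2 siRNA, 5029 with rfk siRNA and 3068 with tranylcypromine. The tranylcypromine array thus stood at 62.6% of control (log2 -0.67), while the aof2 siRNA array was the highest, at 0.27. A further probe set of Mrpl33, close to the filter with a control signal of 48.4, gave 0.48 with tranylcypromine and 0.43 with aof2 siRNA, so the lower value rests on 1 probe set.

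Mrpl9, which encodes another protein of bacterial type, had signals of 2501 in control, 1929 with aof2 siRNA, 1896 with rfk siRNA and 1762 with tranylcypromine. All 3 treated arrays were below control, by log2 differences of -0.38, -0.40 and -0.51. Its 2 other probe sets were also below control on each treated array but closer to it, with differences between -0.32 and -0.07. Mrpl20, which encodes a protein bound early to the large subunit RNA in bacteria, had signals of 2317, 1743, 1816 and 2215 in control, aof2 siRNA, rfk siRNA and tranylcypromine. Both siRNA arrays were below control, by -0.41 and -0.35, and the tranylcypromine array was near it, at -0.07.

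Mrpl12 encodes the stalk protein that recruits translation factors. Its signals were 3667 in control, 2941 with aof2 siRNA, 3529 with rfk siRNA and 3796 with tranylcypromine. Only the aof2 siRNA array stood apart, at -0.32. Mrpl19 had signals of 1956, 1967, 2305 and 1885 in the same order, so it was highest under rfk siRNA, by a log2 difference of 0.24. Its 2 other probe sets past the filter gave 0.11 and -0.06 there. Mrpl17, one of the brightest probe sets, had signals of 6200 in control, 5627 with aof2 siRNA, 5008 with rfk siRNA and 5637 with tranylcypromine, so the rfk siRNA array was lowest, at -0.31. Mrpl55, the dimmest, ranged from 385 to 468.

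Among large subunit proteins specific to mitochondria, Mrpl57 and Mrpl41 lay lowest and Mrpl45 and Mrpl38 highest. Mrpl57 had signals of 3653 in control, 3057 with aof2 siRNA, 2679 with rfk siRNA and 3308 with tranylcypromine. The rfk siRNA array was lowest, at -0.45, and its dimmer probe set gave -0.42 there. Mrpl41 had signals of 3791, 2990, 3801 and 3044 in control, aof2 siRNA, rfk siRNA and tranylcypromine. The aof2 siRNA and tranylcypromine arrays were below control, at -0.34 and -0.32, and its other probe set past the filter gave -0.33 and -0.28. The rfk siRNA array matched control with the brighter probe set (0.00) and stood at -0.15 with the other.

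Mrpl45 encodes a protein at the exit of the peptide tunnel that anchors the ribosome to the inner membrane. Its signals were 1770 in control, 1786 with aof2 siRNA, 1639 with rfk siRNA and 2244 with tranylcypromine. The tranylcypromine array was the highest, at 0.34. Mrpl38 had signals of 625, 681, 643 and 796 in control, aof2 siRNA, rfk siRNA and tranylcypromine, a difference of 0.35 with the drug, but its other probe sets gave -0.20 and, from a control signal of 23.8, 1.43. Mrpl48 had signals of 904, 894, 714 and 759, or -0.34 with rfk siRNA and -0.25 with tranylcypromine, where its other probe set past the filter gave -0.14 and 0.07.

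Several further large subunit genes stayed near control. Mrpl58, which encodes a peptidyl-tRNA hydrolase that frees stalled ribosomes, had signals of 1731 to 1874 and differences of 0.05, 0.11 and 0.11 with aof2 siRNA, rfk siRNA and tranylcypromine. The bright probe sets of Mrpl51 (signals from 9467 to 10066) and Mrpl39 (8199 to 8906) and the dim one of Mrpl37 (596 to 660) gave differences no further from control than 0.09.

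Among small subunit genes Mrps31 was lowest and Mrps34 highest, both with tranylcypromine. Mrps31 had signals of 1417 in control, 1133 with aof2 siRNA, 1263 with rfk siRNA and 1080 with tranylcypromine. All 3 treated arrays were below control, at -0.32, -0.17 and -0.39. Mrps34, whose protein is needed for a stable small subunit, had signals of 3935, 4393, 4003 and 5088 in control, aof2 siRNA, rfk siRNA and tranylcypromine. The drug array was highest, at 0.37, and the aof2 siRNA array next, at 0.16.

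Mrps27, which encodes a pentatricopeptide repeat protein that binds RNA, had signals of 570 in control, 492 with aof2 siRNA, 687 with rfk siRNA and 521 with tranylcypromine. It was highest with rfk siRNA, at 0.27, and below control in the other treated arrays. Mrps16 was above control on all treated arrays, with signals of 3499, 3880, 4119 and 3905 in control, aof2 siRNA, rfk siRNA and tranylcypromine and differences of 0.15, 0.24 and 0.16. Mrps6, whose probe set was the brightest of all members, had signals of 13391, 15215, 14524 and 14349 in this order and differences of 0.18, 0.12 and 0.10, and its other probe set gave 0.21, 0.17 and 0.14.

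Mrps12 encodes the protein at the decoding centre that in bacteria is altered in streptomycin resistance. Its signals were 2669 in control, 2269 with aof2 siRNA, 2116 with rfk siRNA and 2577 with tranylcypromine. Both siRNA arrays were below control, at -0.23 and -0.34. Mrps30 had signals of 1747, 1459, 1622 and 1433 in control, aof2 siRNA, rfk siRNA and tranylcypromine, or -0.26, -0.11 and -0.29. Mrps14 (5862 to 6288) and Mrps33 (5060 to 5736) were the other bright probe sets, and Mrps5 (882 to 1025) and Mrps9 (821 to 919) were among the dim ones.

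The 3 paralogs of one bacterial small subunit protein, Mrps18a, Mrps18b and Mrps18c, gave different values. Mrps18a had signals of 3015 in control, 2594 with aof2 siRNA, 2767 with rfk siRNA and 3371 with tranylcypromine, below control with the siRNAs (-0.22 and -0.12) and above it with the drug (0.16). Mrps18b had signals of 1410, 1448, 1711 and 1773 in the same order, above control with rfk siRNA (0.28) and the drug (0.33). Mrps18c had signals of 4287, 4240, 4291 and 4282 and was the member with the smallest range over the arrays, 0.02 on the log2 scale. Each rested on 1 probe set.

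**Figure D4:**
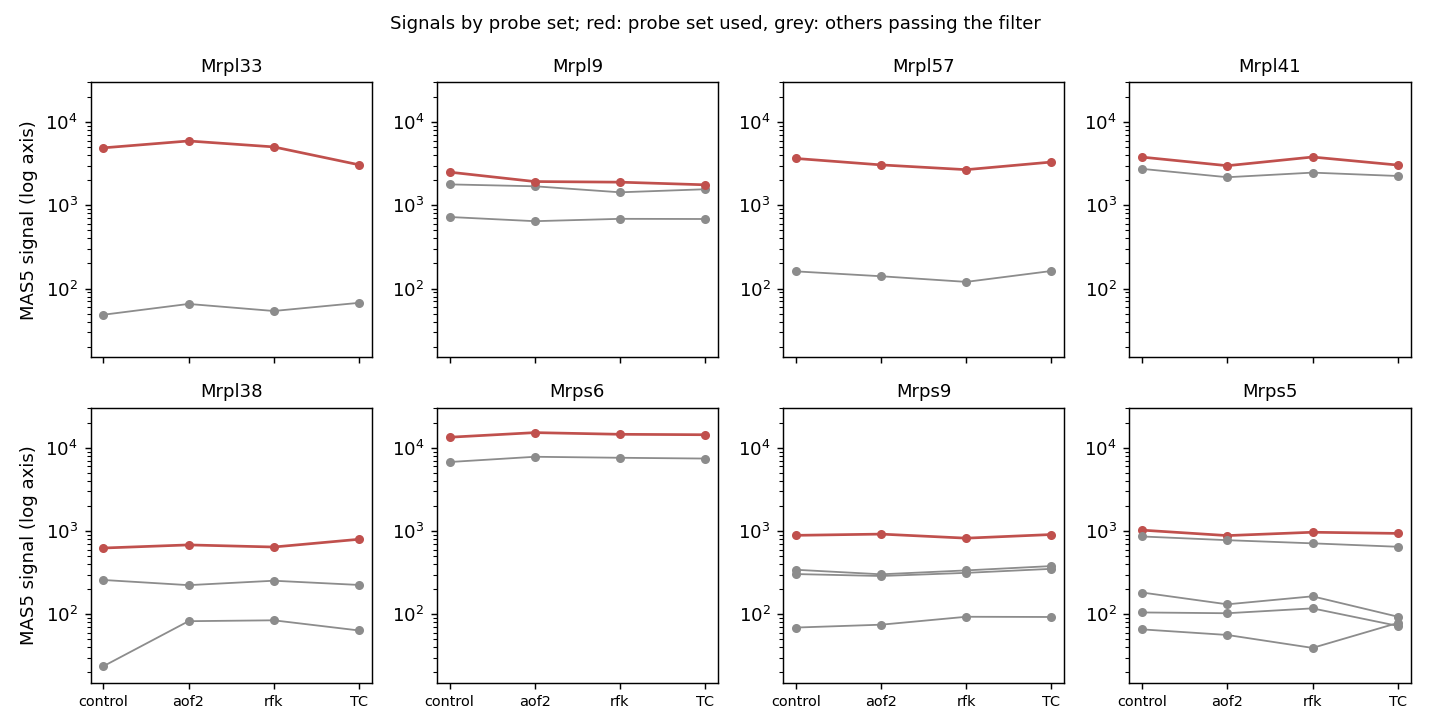
MAS5 signal (vertical log axis) on the 4 arrays (TC, tranylcypromine) for 8 members with several probe sets, the probe set used in red and others that passed the filter in grey. Probe sets of Mrps6, Mrpl41 and Mrpl57 run in parallel, while the dim probe sets of Mrpl33, Mrpl38 and Mrps5 run apart from the bright ones.

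For most members with several probe sets, the probe sets disagreed by more than the member differed from control. Of the 76 members, 35 had several past the filter. The median gap between their lowest and highest log2 difference was 0.28 with aof2 siRNA, 0.26 with rfk siRNA and 0.29 with tranylcypromine, against 0.31, 0.29 and 0.34 for 5228 genes with several. In 26, 27 and 28 of the 35 this spread exceeded the member's own difference from control. All probe sets had the same sign in 17 of 35 in each comparison. Neither count was made for the 5228 genes, so they are not shown to be particular to the members. The widest spread was that of Mrpl38, 2.00 with aof2 siRNA. Mrps5 followed, with 5 probe sets past the filter that ran from -0.96 to 0.26 with tranylcypromine.

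Mitochondrial ribosomal protein genes lay below the cytosolic ones. The 39 cytosolic ribosomal protein genes had medians of 0.10 with aof2 siRNA, 0.12 with rfk siRNA and 0.14 with tranylcypromine, where the mitochondrial ones had -0.05, -0.05 and -0.05. Their quartiles ran from 0.07 to 0.13, from 0.09 to 0.15 and from 0.08 to 0.18, and those of the mitochondrial genes from -0.21 to 0.02, from -0.12 to 0.04 and from -0.13 to 0.10. The 77 genes of the respiratory chain and ATP synthase, whose complexes take up the products of the mitochondrial ribosome, had medians of 0.06, 0.01 and 0.12. These differences between groups were not tested. The groups also differed in brightness, with a median control signal of 23640 for the cytosolic genes and 2506 for the members. The cytosolic genes include Rps16, which was below the filter (7.78 in control), and dim probe sets such as that of Rpl39 (375). The hybridisation controls were above control too, at 0.10, 0.12 and 0.05, and cytosolic ribosomal protein genes have many pseudogenes whose transcripts their probes may share.

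Over the 4 arrays, genes that serve the mitochondrial ribosome varied more than the members, whose median log2 range was 0.22. The median ranges were 0.26 for translation factors, 0.39 for assembly factors and 0.36 for tRNA synthetases. Bright genes had 0.32 and all genes past the filter 0.39, so these lists did not stand out from genes at large. They were also dimmer, with median control signals of 981, 522 and 353, against 2506 for the members. These lists are given whole, dim genes included. The 4 measured ribosomal proteins with other symbols (Dap3, Ptcd3, Chchd1 and Gadd45gip1) had medians of -0.15, -0.05 and -0.07 with aof2 siRNA, rfk siRNA and tranylcypromine, and 0 of 4 reached 1.5-fold. Dap3, a GTP-binding protein of the small subunit also known in cell death, had signals of 5317 in control, 4852 with aof2 siRNA, 4540 with rfk siRNA and 5134 with tranylcypromine. All treated arrays were below control, most with rfk siRNA, at -0.23. Ptcd3, a pentatricopeptide repeat protein of the small subunit, was lowest with aof2 siRNA, at -0.26, where its other probe set gave 0.26.

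The 12 translation factor genes had medians of 0.01, -0.04 and 0.03, with 0 of them past 1.5-fold with aof2 siRNA, 1 lower with rfk siRNA and 1 higher and 1 lower with tranylcypromine. Mtrf1l, the release factor that ends mitochondrial translation at stop codons, had signals of 808 in control, 568 with aof2 siRNA, 522 with rfk siRNA and 536 with tranylcypromine. All treated arrays were below control, by -0.51, -0.63 and -0.59, on 1 probe set. Mtif3, an initiation factor, had signals of 282, 317, 336 and 429 in the same order, highest with the drug at 0.61. Of the 24 assembly and ribosomal RNA factors 0 reached 1.5-fold in any comparison, with medians of -0.05, 0.06 and -0.02. The RNA methyltransferases Mrm1 and Mrm3 stood at 0.56 and -0.42 with aof2 siRNA.

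The 16 mitochondrial aminoacyl-tRNA synthetase genes, whose products charge the tRNAs, had medians of -0.01, -0.06 and 0.19. With tranylcypromine 12 of 16 were above control, against 46.7% of bright genes and 48.0% of all genes past the filter. Other probe sets of Cars2, Iars2 and Tars2 reached down to -0.71, -0.70 and -0.32 there, while all those of Fars2, Vars2 and Wars2 past the filter were above control. The 1 synthetase gene past 1.5-fold with the drug, Aars2, was below the filter, with a control signal of 42.7. It was also the 1 synthetase gene past 1.5-fold with aof2 siRNA, where it was lower. Fars2 was at -0.51 with aof2 siRNA and 0.38 with the drug, and its other probe set gave 0.01 and 0.10. The 12 genes of mitochondrial transcription and biogenesis had medians of -0.04, 0.07 and 0.04. Of these 12 genes, 2, 2 and 3 were at least 1.5-fold higher, against 6.26%, 3.92% and 7.48% of all genes past the filter. At least 1.5-fold lower were 0 in each comparison. Among them Ppargc1a, which encodes a coactivator of mitochondrial genes, had signals of 91.0 in control, 207 with aof2 siRNA, 288 with rfk siRNA and 350 with tranylcypromine, so all treated arrays were above control. Its 5 probe sets gave 0.41 to 1.28, 0.81 to 1.66 and 1.40 to 2.01. Ppargc1b was also above it, but dim, with 8.27 in control. Esrra was at 0.61 with the drug, where its other probe set gave -2.93. Tfam stood at -0.24, 0.03 and -0.25, and its other probe set at -0.19, -0.12 and 0.14. Polrmt stood at -0.25, -0.03 and -0.29, and its other probe set at -0.18, -0.28 and -0.16. Gabpa, the ETS factor subunit, stood at 0.16, 0.37 and 0.20, and its other probe set at -0.13, 0.03 and -0.17. Its partner Gabpb1 stood at -0.51, 0.02 and -0.36, with -0.35, -0.34 and -0.57 from the other probe set. Nrf1 stood at -0.17, 0.04 and 0.08, and its 4 probe sets reached down to -0.29, -0.50 and -0.38. Yy1 stood at -0.07, 0.09 and -0.02, and its 4 probe sets reached up to 0.53, 0.73 and 0.39. Under aof2 siRNA and tranylcypromine the probe sets of Gabpa, Nrf1 and Yy1 thus disagreed in direction, while those of Gabpb1 were both below control. Under rfk siRNA the probe sets of Nrf1 and Gabpb1 disagreed in direction. Gabpa, Nrf1 and Yy1 are named for the motifs searched, after their values were seen.

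**Figure D5:**
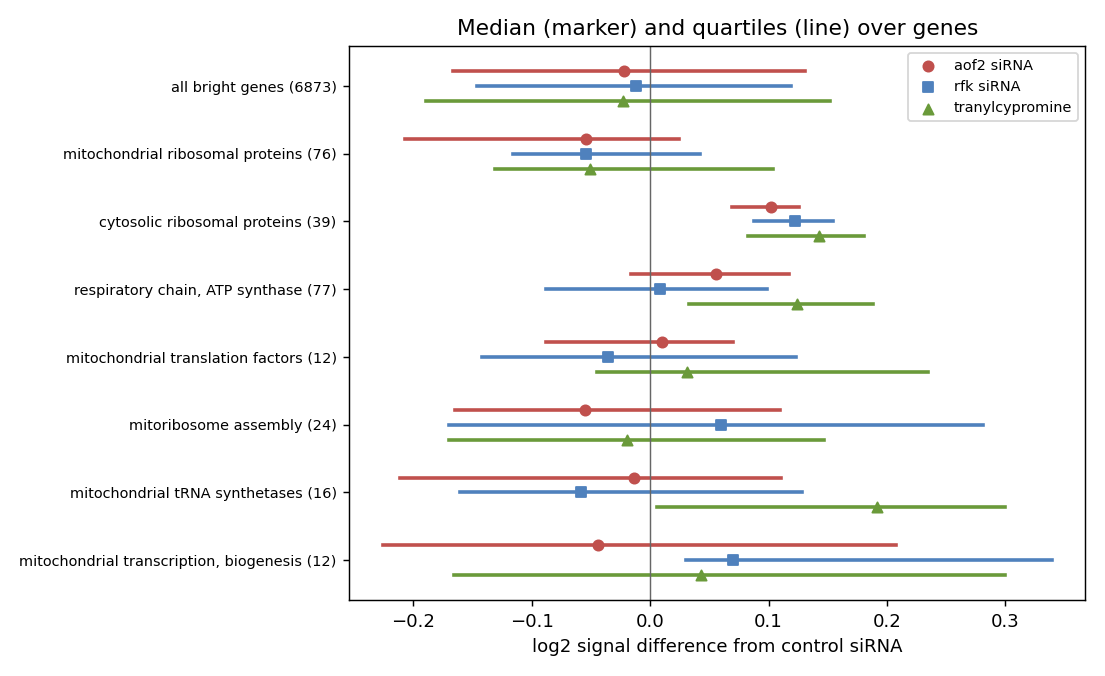
Median (marker) and quartiles (line) of the log2 signal difference from control siRNA (horizontal axis) over the genes of 8 groups, number of genes in brackets, with 1 array per condition. Cytosolic ribosomal protein genes lie above control, at 0.10 to 0.14, and mitochondrial ones slightly below, at -0.05.

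The genes outside the group whose 4 log2 signals, centred on their own mean, lay closest to the median profile of the members were Fkbp1a, Chid1 and Kat5, at distances of 0.02 on the log2 scale over 4 arrays. The median profile itself was 0.04 in control, -0.05 with aof2 siRNA, 0.00 with rfk siRNA and 0.01 with tranylcypromine, so a profile this flat is close to that of any stable gene.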

How the data were processed

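The deposited values are MAS5 signals, linear intensities that the authors computed per probe set. The name MAS5 comes from the submitters' processing notes, with the version and scaling target not given in the sources used here. Trimmed means, leaving out 2% at each end, were 500.003 on every array, so the authors' intensities had been scaled array by array, and equal scaling hides any difference in total RNA per cell. Their number, 1 array per group, limits the precision. Signals were taken to log2. Of 45101 probe sets, 34958 had 1 gene symbol in the platform annotation, 932 had several and 9211 had none, and gene names were updated through the RefSeq table of GRCm38.p6. For each gene the probe set of highest average log2 signal stood in, and genes at or above the median of all probe sets were compared. Genes named are the 4 highest and 4 lowest members per comparison, any past 1.5-fold, and the 3 brightest and 3 dimmest probe sets per subunit. Also named are the 3 members with the widest probe set spread, 8 genes fixed by role and the 3 genes of most like profile. Of the surrounding lists only some of the extremes are given, and further genes of these lists were picked after their values were seen. Members and lists were chosen with earlier results of these data known. The summaries were tested on simulated data. Members of small range and those holding 2 motif matches were named after their values were seen. Calculations used pandas 2.3.3 and NumPy 2.4.6 under Python 3.11.15, with trimmed means from SciPy 1.17.1 and figures from matplotlib 3.10.9. The alternatives are given at the end.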

Additional observations from a re-analysis of the deposited data

How the results depend on the processing

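With arrays centred on their medians, which moved the median of all compared genes to -0.08 with aof2 siRNA and with tranylcypromine, the aof2 siRNA medians were -0.13 for all members, -0.13 for the large and -0.12 for the small subunit, and 89.5% of members were below control. The tranylcypromine medians were then -0.11 for all members and -0.06 for the small subunit, which was 0.01 without centring. Centring shifts every gene of an array by the same value. The members' medians relative to all genes therefore had to stay where they were, at -0.05, -0.05 and -0.04. When a gene's probe sets were averaged, dim ones included, the members at least 1.5-fold higher and lower were 1 and 3 with aof2 siRNA, 1 and 2 with rfk siRNA and 1 and 3 with tranylcypromine. The share of all genes past 1.5-fold was not counted under this setting, so these counts have no background. Of these members, 1 was 2-fold lower with aof2 siRNA (Mrpl41, -1.07) and 1 with tranylcypromine (Mrps15, -1.26, against 0.23 with its brightest probe set). The tranylcypromine median of the members was then -0.01, or 0.02 above that of all genes, and the rfk siRNA median of the small subunit was 0.01. Under that setting Mrpl33 with tranylcypromine stood at -0.10, and under the 7 others between -0.78 and -0.67. When each array was set against the mean of the remaining 3, the members' medians relative to all genes were -0.07, 0.01 and 0.01, and the large minus small differences 0.02, -0.04 and 0.00. The cause of these shifts was not tested. No paired analysis was possible because each group holds 1 array, and for the same reason no array could be left out.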
